A study of Mus musculus with 6 samples.

Results

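Entpd4 and Loxl2 are neighbouring genes on mouse chromosome 14 that together stood low in the DNA of every mesothelioma of this study. They were chosen by name, as 2 of the 25811 genes named on the arrays, because earlier results of these data had shown both of them low in all 5 tumours. Their own levels are therefore given as a description, without a test. Their 17 probes on the denser array design, 6 for Entpd4 and 11 for Loxl2, were set against all probes of the surrounding window, chr14:63006031-65491425 (mm7).

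Malignant mesothelioma arises from the mesothelium, the cell layer that lines the chest and abdomen. Genomic DNA of 5 mouse tumours, titled ARF-129, ARF-112, ARF-104, ARF-128 and ARF-110, was compared with DNA of C57BL/6J mice from Jackson Laboratories by array comparative genomic hybridisation, in which differently labelled tumour and reference DNA compete for each probe. Tumour DNA carried Cy5 and reference DNA Cy3 on all 6 arrays, with no dye swap. ARF-110 was measured on a sparser design of 44050 spots, ARF-128 on both this and a denser design of 243301 spots, and the remaining 3 tumours on the denser design. The study's title describes the tumours as induced by asbestos in mice lacking Arf, and its design text gives the genotype Arf(+/-) for 4 mice. Which of the 5 tumours lies outside those 4 is not given. The labels speak of primary mesothelioma cells for every tumour except ARF-104, for which they name no cell type. ARF-128PlusMinus is the title of the denser ARF-128 array, whose addition is not explained, and this array stands for that tumour below unless the sparser array is named. No source used here names the strain of the tumour-bearing mice, and DNA of their normal tissue was not analysed here. All tumours form 1 group, and nothing in the labels besides the tumour numbers says that they came from separate animals.

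Entpd4 encodes a nucleoside diphosphohydrolase of the Golgi apparatus and lysosomes, which splits phosphate from nucleotides such as UDP inside these compartments. Loxl2 encodes a secreted, copper-dependent enzyme of the lysyl oxidase family, which oxidises lysines in collagens and elastin so that the fibres can be cross-linked. The arrays measured DNA, so the values below are amounts of the genes relative to the reference, not their expression. They are log2 ratios of tumour over reference, centred so that the median autosomal probe of each array is 0. A pure cell population that lost 1 of 2 copies would stand at -1, which is 50% of the reference. Each value averages over all cells of a sample, so a partial loss in many cells and a full loss in fewer cells cannot be told apart. Normal tissue was not analysed and the strain of the tumour-bearing mice is not named. Whether a low ratio arose in the tumour or was inherited was therefore not tested.

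Of the 17 probes, 5 lie on both designs, and these are shown because they carry the comparison of all 5 tumours. Each is 60 bases long except for the last, which has 55. The sequences are those of the scanner files, in lower case throughout, and the strand of the probes is not given. Positions are mm7.
A_53_P171956, Entpd4, chr14:64200354-64200413: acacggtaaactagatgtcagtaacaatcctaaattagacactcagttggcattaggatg
A_53_P147093, Entpd4, chr14:64228685-64228744: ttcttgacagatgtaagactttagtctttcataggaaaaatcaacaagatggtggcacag
A_53_P150552, Loxl2, chr14:64289109-64289168: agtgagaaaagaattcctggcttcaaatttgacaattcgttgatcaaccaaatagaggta
A_53_P150981, Loxl2, chr14:64302696-64302755: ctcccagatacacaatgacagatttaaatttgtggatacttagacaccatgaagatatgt
A_53_P165167, Loxl2, chr14:64327401-64327455: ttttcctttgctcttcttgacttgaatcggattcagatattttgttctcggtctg
No annotation of this build was used, so whether a probe lies in an exon or an intron is not stated. The member probes held between 33.3% and 38.3% G and C (mean 36.9%), against a mean of 36.9% for the probes flanking them and 36.6% for all autosomal probes. DNA had been cut with AluI and RsaI before labelling. The AluI site AGCT and the RsaI site GTAC, each of which reads the same on both strands, occurred in 0 of the 17 member probes, and in 49 (0.0223%) and 30 (0.0136%) of 220065 autosomal probes.

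Entpd4 was low in all 5 tumours. From the lowest to the highest, its log2 ratio was -1.31 in ARF-128 (-1.36 on the sparser array), with ARF-110 at -1.27, ARF-104 at -1.13, ARF-112 at -1.07 and ARF-129 at -1.02. The mean was -1.16 ± 0.12 (SD, n = 5), which is 44.8% of the reference. Per tumour the level lay between 40.4% (ARF-128) and 49.2% (ARF-129) of the reference. ARF-128 and ARF-110 were the lowest and ARF-129 and ARF-112 the highest, but ARF-110 was read by only 2 of the 6 probes. On those 2 probes ARF-104 (-1.28) was just below ARF-110 (-1.27). Neighbours in the order differed by less than the probes of the gene did on a single array, where their SD was 0.14 to 0.70. That SD includes probe offsets that recur from array to array, so it does not measure the error of a difference between tumours.

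Loxl2 was also low in all 5 tumours. In the same direction, its log2 ratio was -1.25 in ARF-110, with ARF-112 at -1.02, ARF-128 at -0.996 (-1.18 on the sparser array), ARF-104 at -0.90 and ARF-129 at -0.79. The mean was -0.99 ± 0.17 (SD, n = 5), or 50.3% of the reference, with tumours between 42.1% (ARF-110) and 57.7% (ARF-129). ARF-110, read by only 3 of the 11 probes, stood lowest and ARF-129 highest, and the other 3 tumours lay between -1.02 and -0.90. On those 3 probes alone, ARF-128 (-1.48, denser array) and ARF-112 (-1.33) were below ARF-110 (-1.25), so its rank depended on the probes. The SD between the probes of Loxl2 on a single array was 0.24 to 0.92, wider than the steps between neighbouring tumours. It too includes recurring probe offsets and does not measure the error of a difference between tumours. Of 19982 autosomal genes with a value in all 5 tumours, 45 (0.225%) were at or below -0.5 in each of them, and among the 14420 with at least 2 probes there were 13 (0.0902%), Entpd4 and Loxl2 included, which is how the pair was chosen.

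**Figure D1:**
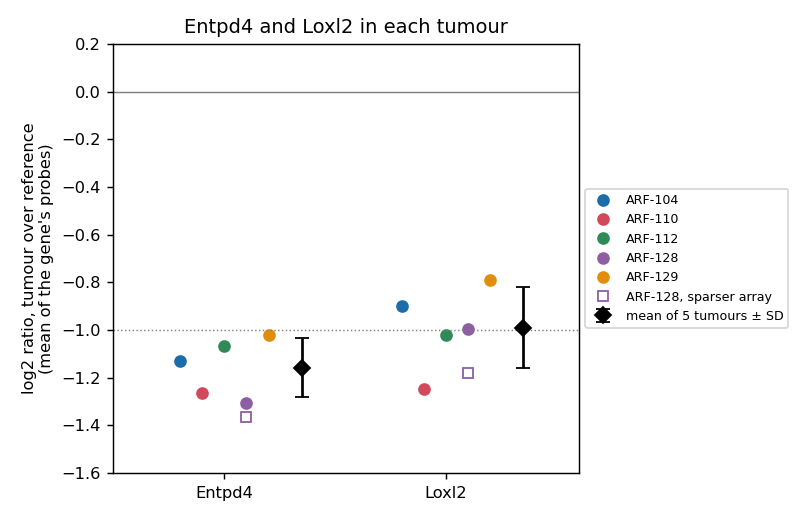
Log2 ratio of tumour over reference DNA (vertical axis) for Entpd4 and Loxl2, as the mean of each gene's probes. Filled points are the 5 tumours, open squares the sparser array of ARF-128, black diamonds the mean ± SD of 5 tumours, and the dotted line marks -1, the level of 1 copy against 2 in the reference. Every point lies between -1.36 and -0.79.

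Entpd4 stood a little below Loxl2 in each tumour. Loxl2 minus Entpd4 was 0.31 in ARF-128, 0.23 in both ARF-129 and ARF-104, 0.04 in ARF-112 and 0.02 in ARF-110, with a mean of 0.17 ± 0.13 (SD, n = 5) on the log2 scale. The genes are read by different probes, whose offsets recur from array to array, and were chosen on these levels, so the difference, above 0 in 5 of 5 tumours, is given as a description with no test. In ARF-110 and ARF-112 the difference was far below the spread between probes. The order also depended on the probes. On the 5 probes shared by both designs, Entpd4 was at -1.11 and Loxl2 at -1.33 in ARF-112, the reverse of the order over all probes.

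The 5 shared probes did not all behave alike. The probe of Entpd4 at 64200354 was low on every array, with ARF-110 at -1.37, ARF-112 at -1.60, ARF-104 at -1.53, ARF-129 at -1.69, and values of -1.69 and -1.79 on the denser and sparser arrays of ARF-128. The probe of Loxl2 at 64302696 was the lowest member probe in every tumour except ARF-112, with ARF-110 at -1.46, ARF-112 at -1.65, ARF-104 at -1.71, ARF-129 at -1.76, and values of -2.20 and -1.91 in ARF-128. Both were below -1 on all 6 arrays.

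A different pattern came from the probe of Loxl2 at 64289109. It stood at -0.98 in ARF-110 but at 0.41 in ARF-129, 0.01 in ARF-112, -0.14 in ARF-104, and -0.06 and -0.14 on the denser and sparser arrays of ARF-128. It was thus near 0 or above in every tumour except ARF-110, although the probe before it was at or below -0.5 on all 4 denser arrays and the probe after it on all of them but that of ARF-128. The 2 remaining shared probes were below -0.5 on every array. The probe of Entpd4 at 64228685 ranged from -1.35 (ARF-128) to -0.62 (ARF-112), and the last probe of Loxl2, at 64327401, from -2.36 (ARF-112) to -1.06 (ARF-129).

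Over all member probes, 15 of 17 were at or below -0.5 in ARF-104, 14 of 17 in ARF-112, 13 of 17 in both ARF-129 and ARF-128, and all 5 in ARF-110, with 4 of 5 on the sparser array of ARF-128. The share of all autosomal probes at or below -0.5 was 2.3% in ARF-110, 19.7% in ARF-129, 14.9% in ARF-112, 11.8% in ARF-104, and 27.2% on the denser and 15.6% on the sparser array of ARF-128. On the mean of the 4 denser arrays, 13 of 17 member probes were at or below -0.5. The exceptions began at 64204646 in Entpd4 (-0.29) and at 64254963 (-0.44), 64289109 (0.05) and 64294632 (-0.43) in Loxl2.

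The unevenness along the genes was largely the same from tumour to tumour. The SD between the 17 probes of their mean over the denser arrays was 0.54, while a single probe varied between these 4 arrays with a median SD of 0.24. As a description, Pearson's r between 2 denser arrays over the 17 member probes ran from 0.73 to 0.94 (median 0.86, 6 pairs of arrays). Over the 277 probes flanking the low stretch it ran from 0.44 to 0.89 (median 0.72). The points share the same probe sequences, the same reference DNA and, for 3 tumours, the same day of scanning. None of the member spots was marked as an outlier or saturated, and all were well above background in both channels except for 1 of 17 in ARF-112.

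**Figure D2:**
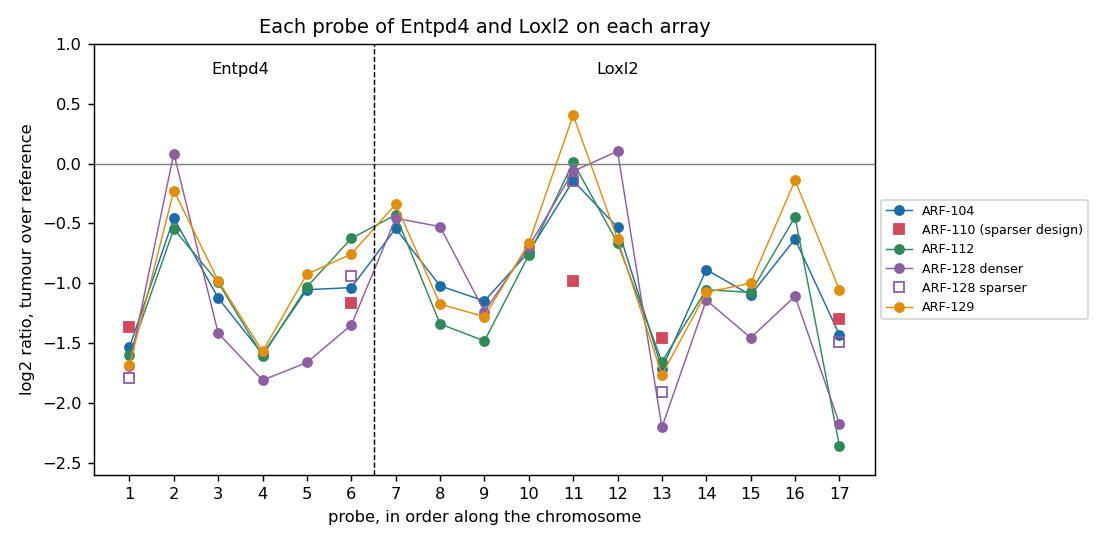
Log2 ratio (vertical axis) of each probe of Entpd4 (1 to 6) and Loxl2 (7 to 17) in their order along chromosome 14 (horizontal axis), with 1 colour per tumour, lines for the 4 denser arrays and squares for the 2 sparser arrays. The lines rise and fall together, and at probe 11, which begins at 64289109, ARF-110 is at -0.98 while the other arrays lie between -0.14 and 0.41.

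The extent of the low ratios around the pair was described by fitting 1 low stretch between 2 flanks to the window on each array by least squares, a model that allows no further low stretch. The window has 312 probes on the denser and 86 on the sparser design. The fitted stretch covered chr14:64121782-64341649 (33 probes) in ARF-104, chr14:64121782-64327455 (9 probes) in ARF-110 and on the sparser array of ARF-128, chr14:64149113-64327455 (28 probes) in ARF-112, chr14:64111605-64341649 (35 probes) on the denser array of ARF-128 and chr14:64111605-64327455 (34 probes) in ARF-129. The part common to all arrays was chr14:64149113-64327455, or 178343 bp with 28 probes on the denser design, and the widest extent was 230045 bp. The fitted ends thus differed by a few probes, and all probes named for both genes lay inside the stretch on every array. In ARF-110, ARF-112, ARF-129 and on the sparser array of ARF-128 the stretch ended on the last Loxl2 probe. These boundaries come from the values that chose the genes and carry no test.

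At the edges in ARF-110, the array with the smallest spread among its flanking probes (SD 0.16), the probe beginning at 64111605 was at 0.08 and the next one, at 64121782, at -1.42. At the other end the last Loxl2 probe was at -1.30 and the next one, at 64341590, at -0.02. The 9 probes between these edges all lay between -1.46 and -0.98. On the denser arrays the left edge was less even. The probe at 64135787 in Slc25a37 was low on each, with ARF-128 at -1.27, ARF-104 at -1.15, ARF-112 at -1.01 and ARF-129 at -0.98, while the one before it, at 64128347, was at -0.64, -0.25, -0.33 and 0.05 in the same order. On the right, all 4 denser arrays were between -0.03 and 0.55 at the probe at 64344285, which has 47 bases. They did not all stay there. The next probe, at 64350258, ranged from -0.28 (ARF-112) to 0.50 (ARF-129), and the one at 64354386 from -1.27 (ARF-112) to -0.30 (ARF-129).

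**Figure D3:**
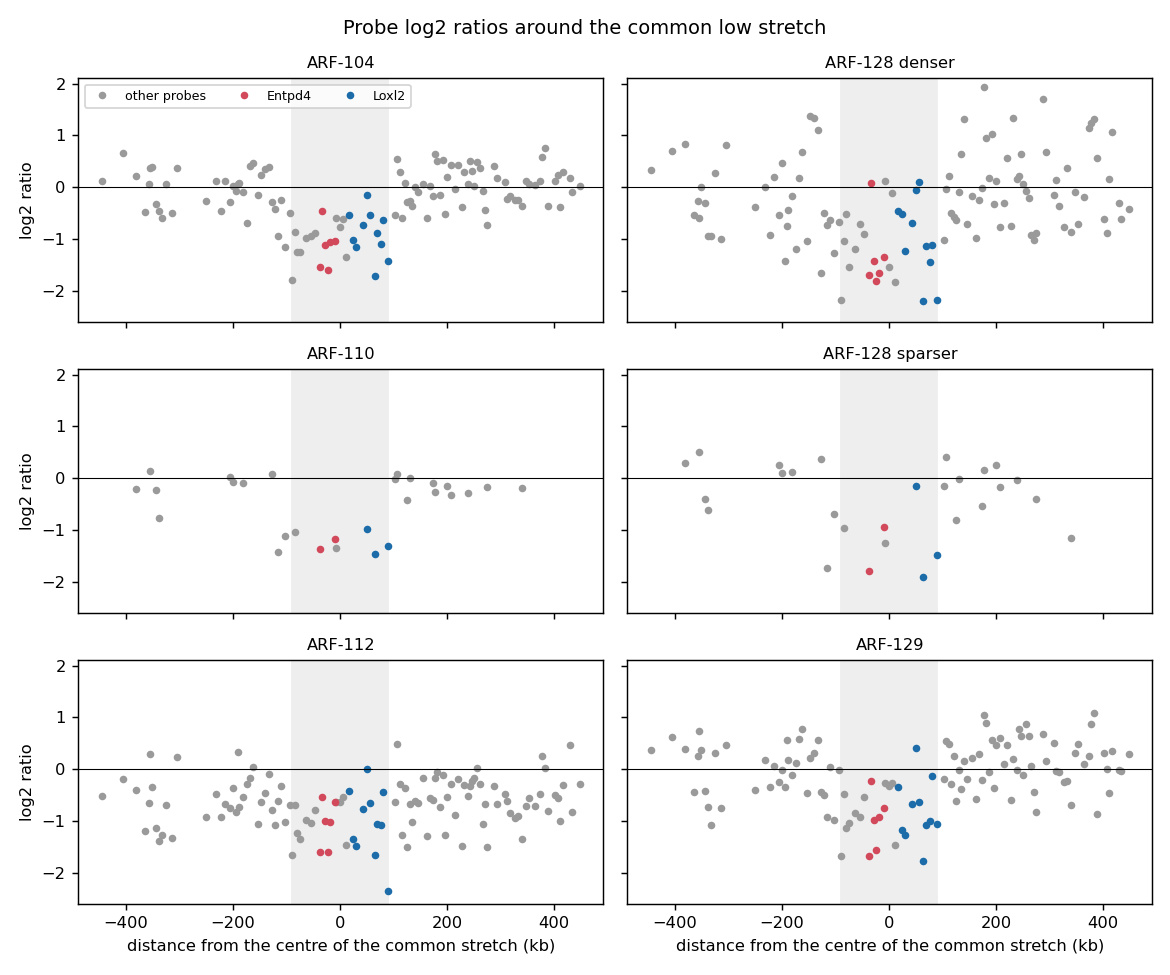
Log2 ratio (vertical axis) of each probe against its distance in kb from the centre of the common low stretch (horizontal axis), with 1 panel per array. Red points are probes of Entpd4, blue points probes of Loxl2, grey points all other probes, and the shaded band is the common stretch. Low points are packed in the band on all 6 arrays. In ARF-112 most points outside it also lie below 0, and the flanking probes of the whole window had a mean of -0.63.

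The common stretch was at a like level in each tumour, while its surroundings were not. Its mean was -1.24 in ARF-110, with ARF-128 at -1.08 (-1.21 on the sparser array), ARF-112 at -1.02, ARF-104 at -0.999 and ARF-129 at -0.85, or -1.04 ± 0.14 over the tumours (SD, n = 5). Single probes at or below -0.5 were not limited to it: they made up 63.9% of the flanking probes in ARF-112, 31.4% in ARF-128 (16.0% on the sparser array), 15.2% in ARF-129, 10.5% in ARF-104 and 2.67% in ARF-110. The flanking probes of the window had means of -0.63 in ARF-112, -0.16 in ARF-110, -0.13 in ARF-128 (-0.09), -0.04 in ARF-104 and 0.03 in ARF-129. The median of all chromosome 14 probes was -0.58 in ARF-112, against -0.12 to 0.03 in the other tumours, and its part in the low flanks was not tested.

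The stretch therefore lay below its own flanks by unequal amounts. The stretch minus its flanks was between -1.08 and -0.88 in 4 tumours (ARF-110 at -1.08, ARF-104 at -0.96, ARF-128 at -0.95 with -1.12 on the sparser array, ARF-129 at -0.88), but -0.39 in ARF-112. Without ARF-112 the mean was -0.97 ± 0.08 (SD, n = 4), and with it -0.85 ± 0.27 (SD, n = 5). ARF-112 had low flanks without a lower stretch: its Entpd4 and Loxl2 values lay inside the range of the other 4 tumours. With another background correction (normexp) the flanks of ARF-112 were at -0.21 and its stretch at -0.83. The difference was then -0.61 in ARF-112 and -0.37 in ARF-129, so that ARF-112 no longer had the smallest one.

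**Figure D4:**
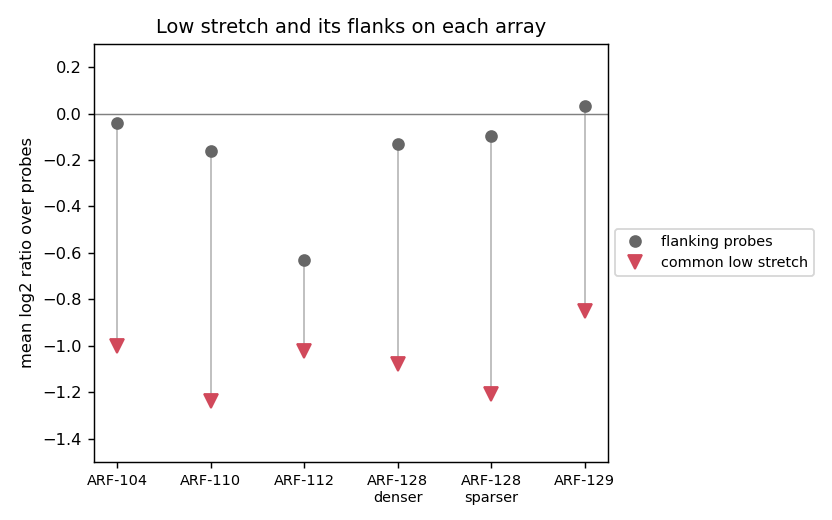
Mean log2 ratio over probes (vertical axis) of the common low stretch (red triangles) and of the flanking probes of the window (grey circles) on each of the 6 arrays, joined by a line. The triangles lie between -1.24 and -0.85 on all arrays, and the circle of ARF-112, at -0.63, lies apart from the others, which are between -0.16 and 0.03.

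Other genes of the window were examined with limma, as a test of the mean of the 5 tumours against 0 fitted over all 19982 genes with Benjamini-Hochberg adjustment. The tumours share probe sequences and reference DNA, and probe offsets recur from array to array. The test does not separate such an offset from a change in the amount of DNA. This limit holds for each limma p-value given below. Of the 51 other genes named in the window, 40 had a value in every tumour, and the other 11 had no probe for ARF-110. Of the 40, 7 were lower at an adjusted p below 0.05 and 0 were higher (17 and 0 at an unadjusted p below 0.05). Over all genes, 6.63% were called lower and 8.02% higher. At an unadjusted p below 0.05, 3440 of all 19982 genes were lower and 3548 higher. The median of the 40 means was -0.21, against -0.01 over all genes. Without ARF-112, limma called 0 of the 40 lower (9 unadjusted), as it did without ARF-104 (15) or without ARF-129 (16), and with the day of scanning as a random block also 0 (11 unadjusted). Over all genes, the fit without ARF-112 called 0, and the fit with the block called 3 lower and 3 higher. At an unadjusted p below 0.05, 2789 of 19982 genes were lower without ARF-112 and 2219 with the block. For the fits without ARF-104 or ARF-129 the share over all genes is not given, so their counts cannot be set against it.

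Inside the common stretch, Synb, listed under its older name D930020E02Rik, was lower on its single probe (-0.82 ± 0.24, SD, n = 5, limma adjusted p = 0.0124). It derives from a retroviral envelope gene and serves cell fusion in the placenta. Its values were -1.05 in ARF-110, with ARF-128 at -1.03, ARF-104 at -0.86, ARF-112 at -0.68 and ARF-129 at -0.48, below 0 in 5 of 5. The stretch was fitted to values that include this probe, so the call lends the stretch no independent support. The transcript AK031288, with a single probe between Entpd4 and Loxl2, was not called (-0.55 ± 0.54, adjusted p = 0.0767 by limma). It was at -1.35 in ARF-110 but at 0.11 in ARF-128, where the sparser array gave -1.24 for the same probe. On the 4 denser arrays alone, AK046150 next to Entpd4 was at -0.78 ± 0.17 and BC086315, between the pair, at -0.91 ± 0.19 (SD, n = 4).

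At the left edge, Slc25a37, which encodes mitoferrin, an importer of iron into mitochondria, was lower (-0.57 ± 0.19, SD, n = 5, limma adjusted p = 0.0159). Its 7 probes straddle the edge, so its mean mixes low and higher probes. Just beyond the right edge of the common stretch AK006177 was at -0.13 ± 0.24 (n = 5), AK164271 at -0.15 ± 0.39 (n = 4 denser arrays) and Chmp7, a component of the ESCRT membrane-remodelling machinery, at -0.39 ± 0.40 (n = 5). Neither AK006177 nor Chmp7, which had a test, passed it, and Chmp7 was at -1.07 in ARF-112 but between -0.33 and -0.03 in the other 4. The first AK006177 probe, at 64341590, lay inside the fitted stretch of ARF-104 and of the denser ARF-128 array. There its mean mixes probes inside and outside the stretch.

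The remaining 5 genes called lower lay farther away. Stc1, which encodes the secreted hormone stanniocalcin, was at -0.67 ± 0.34 (limma adjusted p = 0.0202), with -1.27 in ARF-112 and -0.62 to -0.39 in the others. Ppp3cc, a catalytic subunit of calcineurin, was at -0.46 ± 0.29 (0.0398), again with its lowest value in ARF-112 (-0.98). Polr3d, a subunit of RNA polymerase III, was at -0.96 ± 0.74 (0.0356) on 1 probe, with -2.25 on the denser array of ARF-128 but -0.54 on the sparser one. Npm2, a chromatin protein of the egg, was at -0.58 ± 0.29 (0.0223), and Dok2, a docking protein of blood cells, at -0.42 ± 0.29 (0.0497), each on 1 probe. Each of these means was closer to 0 than those of Entpd4 and Loxl2. Of the 40 window genes, 1 (BC021645) is listed under this name on other chromosomes too, so its value averages several places.

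**Figure D5:**
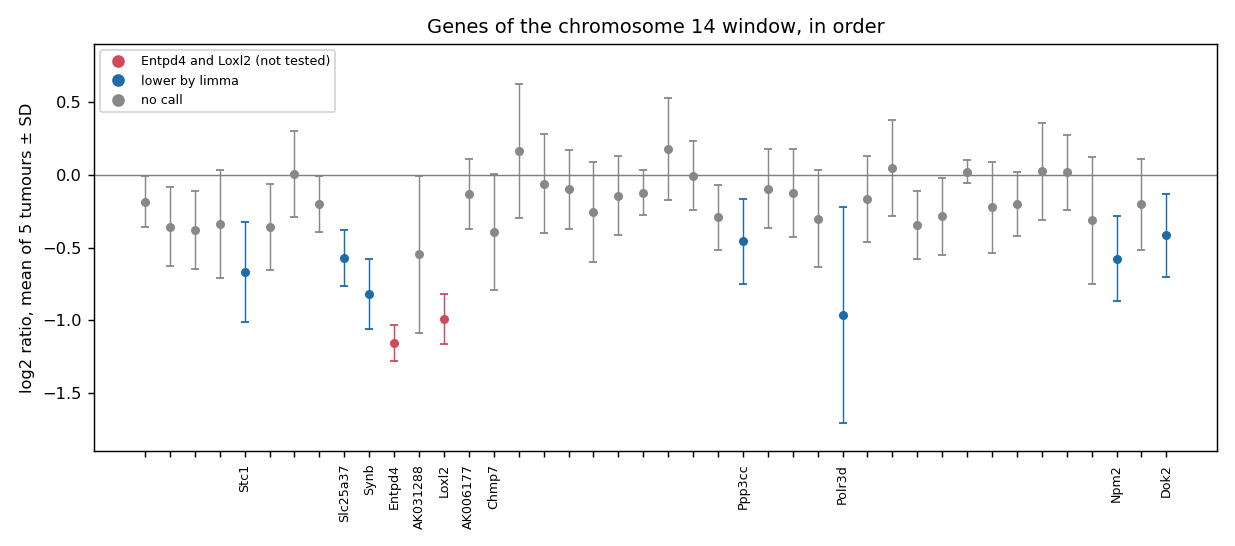
Mean log2 ratio ± SD over 5 tumours (vertical axis) of the genes of the chromosome 14 window, in the order of their first probes (horizontal axis). Names stand under some of the genes described in the text. BC021645, listed on other chromosomes too, is drawn first although its window probes do not come first. Entpd4 and Loxl2, not tested, are red, the 7 genes lower by limma blue and the others grey. Entpd4 and Loxl2 have the lowest means, at -1.16 and -0.99, and Polr3d follows at -0.96 with an SD of 0.74.

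In the RefSeq gene table of a later mouse assembly (GRCm38.p6), used for names and neighbours only, 6 genes are listed between Entpd4 and Loxl2, of which 4 are protein-coding. One of them is Entpd4b, a close relative of Entpd4 by name. None of the 6 names occurs among the probes' gene names of the window. Whether the probes named Entpd4 also bind Entpd4b was not tested.

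The other members of both gene families lie elsewhere in the genome, and too few were measured to read their counts against the 6.63% of all genes called lower and 8.02% called higher. Of the other Entpd genes, which encode nucleotidases of the cell surface or of internal membranes, 6 had a value in all 5 tumours, and limma called 0 lower and 2 higher. Those were Entpd1, the surface enzyme CD39 (0.55 ± 0.14, adjusted p = 0.0151, above 0 in 5 of 5), and Entpd7 (0.36 ± 0.17, adjusted p = 0.0414), both on chromosome 19. The lowest was Entpd2 (-0.41 ± 0.61), which did not pass. Of the other lysyl oxidase genes 3 had a value, and limma called 0 lower and 1 higher, Loxl4 (0.43 ± 0.08, adjusted p = 0.0196), which also lies on chromosome 19. Lox itself was at -0.13 ± 0.18 and Loxl1 at 0.01 ± 0.14 (SD, n = 5). With the day of scanning as a block, 0 of these were called in either direction. Entpd8 and Loxl3 had no value in all 5 tumours.

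Among 14419 genes with at least 2 probes, the gene most like each of the pair over the 5 tumours was the other one, with a root mean square difference of 0.20 on the log2 scale. For Entpd4 the next were Srp54 (now Srp54a), of the signal recognition particle (0.29), Cxcl14, a chemokine (0.38), AK015351 (0.39) and Six6os1 (0.41). For Loxl2 the next were AK015351 and BC023499 (both 0.30), Cxcl14 (0.31) and Srp54 (0.37). Cxcl14 lies on chromosome 13 and the others on chromosome 12, so none of these adjoins the stretch. Srp54, for example, was at -1.44 in ARF-128 and -1.28 in ARF-129, with ARF-112 at -1.05, ARF-104 at -0.84 and ARF-110 at -0.76. The likeness is a description over 5 values, computed on the same levels for which the pair was chosen. Each gene named here is also among the 13 genes, of those with at least 2 probes, at or below -0.5 in every tumour. The ranking therefore follows in part from that choice.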

How the data were processed

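Per the file headers, the scans were read by the authors with Agilent Feature Extraction 8.5.1.1 (sparser design) and 9.1.3.1 or 9.5.3.1 (denser design), which gave a background-subtracted, dye-normalised red and green intensity per spot and a log10 ratio. The deposited value table holds these ratios as log10 (sparser) and log2 (denser) values, as found by setting it against each array. Its column medians were 0 (ARF-110), 0.0185 (ARF-128), 0.0491 (ARF-128, denser), 0.0317 (ARF-129), 0.0232 (ARF-112) and 0.0200 (ARF-104), so it was not centred.

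Log2 ratios of processed red over green intensity were computed here. Control and outlier spots were left out, repeated probes averaged, arrays centred on the autosomal median, and a gene's probes averaged. Sparser probes were placed by name on the denser design, whose header states mm7. The low stretch needed at least 3 probes. limma 3.58.1 (R 4.3.3) fitted the mean of 5 tumours over 19982 genes and was tested on simulated data. Fits of the stretch and plots used Python 3.11.15. The members, the gene lists and the tests were chosen with earlier results of these data known. Genes named are the pair, window genes past an adjusted p of 0.05 or with a mean at or below -0.5, the 3 nearest genes on each side, the lowest and highest of each family, and the 5 genes most like each member. Any others were named after their values were seen. Alternatives were another background correction, centring, outlier and dim-probe filters, probe medians, shared probes, the other ARF-128 array, the deposited ratios, the scan day as a block and each tumour left out. The number of arrays limits the precision. Accession names of 9 of 40 window genes were not matched and are kept as listed. The values of 1 window gene are not reported here.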

Additional observations from a re-analysis of the deposited data

Results flagged for a closer look

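Of 55 sets of 5 tumour values examined, 11 had an end value set apart from the rest by more than Dixon's limit of 0.71 of the range, where chance gives about 1 in 20 for a single set. Most sets are genes of the same window read on the same arrays, so they are not independent. The count therefore cannot be read against that rate. ARF-112 accounted for most of the cases reported here. It was the low value for the flanking probes (mean -0.63), for Stc1 (-1.27) and for Ppp3cc (-0.98). It was the high value for the common stretch minus its flanks (-0.39) and for Entpd6, on chromosome 2 (0.49). The median of chromosome 14 in ARF-112 was -0.58, and its part in these window values was not tested. The 2 other cases were Polr3d in ARF-128 (-2.25, against -0.54 on the sparser array) and Lox in ARF-129 (-0.44).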

How the results depend on the processing

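Entpd4 and Loxl2 stayed below 0 on average in all 17 alternatives run for each, between -1.28 and -0.95 for Entpd4 and between -1.19 and -0.60 for Loxl2. Values that moved by more than 1 SD between tumours were Entpd4 at -0.95 with normexp background correction, -1.01 centred on chromosome 14 and -0.98 centred on the flanking probes, and Loxl2 at -0.60 with normexp, -1.19 on the probes of both designs and -0.82 centred on the flanking probes. Leaving out 1 tumour gave -1.19 to -1.12 for Entpd4 and -1.04 to -0.93 for Loxl2. Loxl2 minus Entpd4 averaged 0.09 to 0.35, above 0 in each alternative. The fitted stretch on the mean of the denser arrays held 28 to 35 probes. With normexp it ended at 64319540, which left the last Loxl2 probe, at 64327401, outside.

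The 7 window genes called lower became 3 with normexp, 3 centred on chromosome 14, 3 centred on the flanking probes, 12 with the sparser array of ARF-128, 13 with the mean of both its arrays, 4 of 27 among genes with at least 2 probes, and 0 with the scan day as a block. Leaving out 1 tumour gave 0 to 8, with 0 on leaving out any of ARF-129, ARF-112 and ARF-104. The Entpd genes called higher, 2 in the main setting, were 0 with the block and 0 to 2 with a tumour left out, being 0 without any 1 of these 3 and 1 without ARF-110. For the Lox genes the count was 0 with the block and 0 to 1, being 0 without the same 3 tumours. The share over all genes is given above only for the main fit, the block and the fit without ARF-112. The other counts cannot be set against it. GC-matched centring, centring on the flanking probes and all alternatives for the stretch in ARF-112 were chosen after seeing the data. No paired comparison of samples between groups was possible because all tumours form 1 group, so that no replicate number joins samples of different groups. Of the 40 window genes, 1-probe genes such as Polr3d rest on a single spot per array, and the sparser design reads Entpd4 with 2 probes and Loxl2 with 3.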
